A study of Homo sapiens with 8 samples.

Results

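H3K4me2 was followed along the 4 human HOX clusters, HOXA, HOXB, HOXC and HOXD, which hold the 38 HOX genes considered here. The peaks were those overlapping fixed hg19 windows: HOXA at chr7:27130001-27250000, HOXB at chr17:46600001-46810000, HOXC at chr12:54330001-54450000 and HOXD at chr2:176940001-177060000. The windows were 120 kb long, except for HOXB with 210 kb, and summed to 570 kb. They held 57 of 33878 peaks in siCtrl replicate 1, 61 of 44831 in siCtrl replicate 2, 63 of 50587 in siLSD1 replicate 1 and 56 of 49611 in siLSD1 replicate 2. Merging overlapping peaks of the 4 libraries gave 55 regions in the clusters, of 58952 in the genome.

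The cells were RD, an established rhabdomyosarcoma line, at passages given by the labels as p10-p15. They received a control siRNA (siCtrl) or 1 Silencer Select siRNA against LSD1 (siLSD1), both by reverse transfection, and were harvested 96 hours later. The medium was changed at 8 hours in both groups. Pairs of values are given for replicates 1 and 2 in this order. Each group had 2 ChIP libraries, which the submitters call biological replicates, so that p-values measure only the spread between these libraries. The 4 input libraries were not analysed here, the LSD1 protein was not measured in these files, and expression of the HOX genes was not analysed.

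HOX genes encode homeodomain transcription factors that specify position along the body axis. In each cluster the genes stand in the order of their paralog numbers. Low numbers, called early here, act in the hindbrain and anterior trunk, and high numbers, called late, act in the posterior trunk and limbs. H3K4me2 marks promoters and enhancers and can form long continuous domains over active HOX genes. LSD1, the product of KDM1A, is a demethylase that removes this mark and the monomethyl form.

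All 38 members were found in RefSeq (GRCh38.p14), and in all 4 clusters their order followed their numbers. HOXA ran from HOXA2 through HOXA3, HOXA4, HOXA5, HOXA6, HOXA7, HOXA9, HOXA10 and HOXA11 to HOXA13. HOXB ran from HOXB1 through HOXB2, HOXB3, HOXB4, HOXB5, HOXB6, HOXB7, HOXB8 and HOXB9 to HOXB13. HOXC ran from HOXC4 through HOXC5, HOXC6, HOXC8, HOXC9, HOXC10, HOXC11 and HOXC12 to HOXC13, and HOXD from HOXD1 through HOXD3, HOXD4, HOXD8, HOXD9, HOXD10, HOXD11 and HOXD12 to HOXD13. No hg19 gene positions were used, so peaks are placed by their distance from the early end of each window and were not assigned to single genes.

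Promoter sequences (250 bases before to 50 bases after the start) were matched for 20 of the 38 members, which gave 26 distinct promoters, since HOXC4 and HOXC5 share 1 and some genes have several. Of these, 16 were from HOXA, 7 of them of HOXA3, and 8 from HOXD, with 1 each from HOXB and HOXC. The CpG dinucleotide (CG, which reads the same on both strands) was counted, since H3K4 methylation is often found at CpG-rich promoters. The members' promoters held a median of 22.5 CpG per 300 bases, against 14 over 34943 RefSeq promoters. At least 10 CpG were found in 84.6% of the members' promoters and in 56.3% of all. The early and the late ends of HOXA and HOXD are shown because these clusters contrast in where the mark lies, with each CpG in capitals. HOXA2 patterns the second pharyngeal arch, HOXA13 and HOXD13 the digits and the genital tract, and HOXD1 is an anterior gene. The positions are GRCh38.p14 and cannot be set against the hg19 peaks.
HOXA2 (chr7:27102634-27102933, minus strand): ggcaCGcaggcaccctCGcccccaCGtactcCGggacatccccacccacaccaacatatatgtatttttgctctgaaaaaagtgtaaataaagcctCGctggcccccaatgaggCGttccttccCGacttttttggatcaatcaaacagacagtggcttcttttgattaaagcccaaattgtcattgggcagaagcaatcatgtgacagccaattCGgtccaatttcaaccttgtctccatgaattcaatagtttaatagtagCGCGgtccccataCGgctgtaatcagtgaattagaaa
HOXA13 (chr7:27200042-27200341, minus strand): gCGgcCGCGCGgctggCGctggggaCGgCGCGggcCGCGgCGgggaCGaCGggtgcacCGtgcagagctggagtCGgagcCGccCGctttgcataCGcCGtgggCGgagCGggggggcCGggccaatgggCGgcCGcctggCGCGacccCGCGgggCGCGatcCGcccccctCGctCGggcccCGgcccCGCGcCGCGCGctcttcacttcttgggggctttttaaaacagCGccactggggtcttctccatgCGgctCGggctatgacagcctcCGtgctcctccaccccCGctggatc
HOXD1 (chr2:176188418-176188717, plus strand): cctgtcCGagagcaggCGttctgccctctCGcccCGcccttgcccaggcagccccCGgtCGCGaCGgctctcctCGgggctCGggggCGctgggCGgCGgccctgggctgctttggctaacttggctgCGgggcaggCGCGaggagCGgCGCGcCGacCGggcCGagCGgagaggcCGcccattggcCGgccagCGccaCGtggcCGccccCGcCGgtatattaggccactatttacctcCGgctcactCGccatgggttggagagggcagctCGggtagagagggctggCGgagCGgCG
HOXD13 (chr2:176092471-176092770, plus strand): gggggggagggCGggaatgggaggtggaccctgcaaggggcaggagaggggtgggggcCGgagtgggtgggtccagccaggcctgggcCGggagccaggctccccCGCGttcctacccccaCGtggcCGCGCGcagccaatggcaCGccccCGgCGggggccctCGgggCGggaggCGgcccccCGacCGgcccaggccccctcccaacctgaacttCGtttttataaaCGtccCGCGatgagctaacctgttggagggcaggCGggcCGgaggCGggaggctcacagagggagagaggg

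The HOXA13 promoter held 44 CpG and that of HOXA2 held 11, so that in this pair the late gene had the higher count. In HOXD the early HOXD1 promoter held 36 and the late HOXD13 promoter 24. Promoters in between varied, with 31 CpG at HOXA7, 13 at HOXA11, 34 at HOXD8 and 4 at HOXD4. These pairs of end genes therefore show no trend along the clusters.

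The clusters were among the most densely covered stretches of the genome. Over the 4 libraries, peaks covered on average 61.5% of HOXA, 50.3% of HOXC, 41.2% of HOXD and 37.8% of HOXB. Of 16221 tiles of 120 kb outside the clusters that held a peak, 0 were covered more than HOXA, 1 more than HOXC and 4 more than HOXD, and the median tile was covered at 3.13%. Of 10587 such tiles of 210 kb, 0 were covered more than HOXB, and the median was 2.75%.

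Peaks of the clusters were also broad and high in their own lists. The score is the authors' value and was used only for ranks within a list. The median score percentile of HOX peaks was 92.6 and 93.0 in siCtrl replicates 1 and 2, and 91.2 and 94.4 in siLSD1 replicates 1 and 2. Their median width percentile was 93.9, 91.9, 91.7 and 92.9 in the same order. The widest peak of HOXA ranked 1 in siCtrl replicate 1 and 2 in each of the other libraries.

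**Figure D1:**
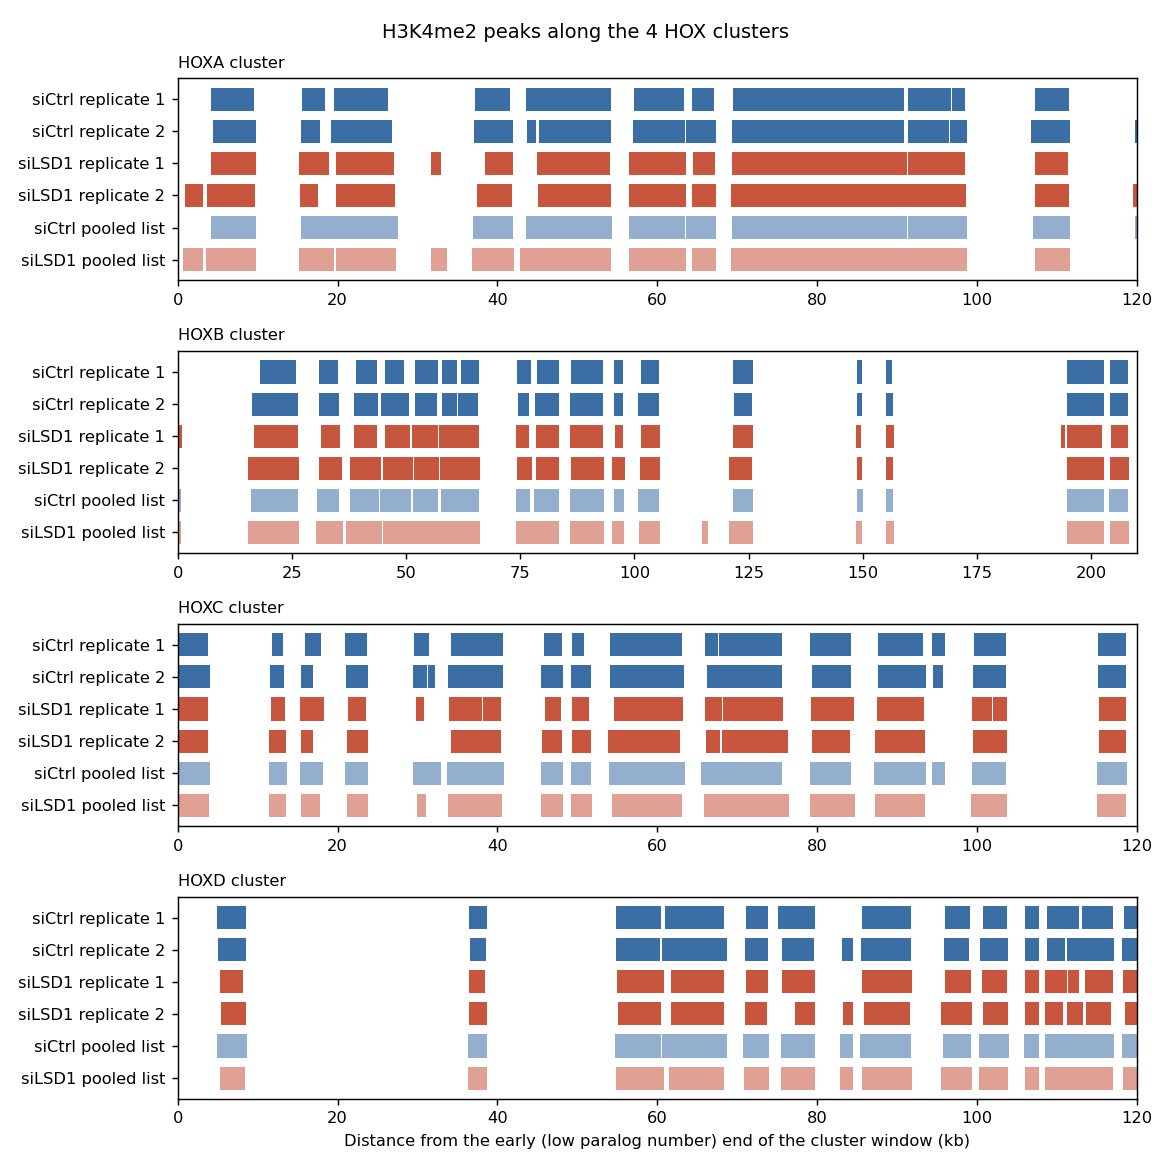
Peaks of the 4 libraries and the 2 pooled lists along each cluster; the x axis is the distance in kb from the early end, blue bars are siCtrl and red bars siLSD1 peaks, paler for the pooled lists. HOXA and HOXC were covered along their length, HOXB mainly over its early 105 kb and HOXD mainly over its late 60 kb.

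After siLSD1, HOXB had more sequence under peaks in both libraries than in either siCtrl library, HOXC and HOXD had less, and the libraries of HOXA overlapped. The differences were small beside the size of the clusters and went in opposite directions. None could pass the exact permutation test, whose lowest two-sided p is 0.333 for groups of 2.

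HOXA, whose late genes include the limb and reproductive tract regulators HOXA10, HOXA11 and HOXA13, had 71.5 and 74.55 kb under peaks in siCtrl replicates 1 and 2. The siLSD1 replicates 1 and 2 had 73.5 and 75.5 kb. The means were 73.0 ± 2.13 kb (SD, n = 2) and 74.5 ± 1.43 kb (SD, n = 2), with an exact permutation p of 0.667. The libraries of both groups were interleaved, and without siCtrl replicate 1 the difference of 1.47 kb became -0.038 kb.

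HOXB, which holds the hindbrain gene HOXB1 and the blood stem cell regulator HOXB4, had 71.6 and 79.4 kb with siCtrl. The siLSD1 libraries had 80.1 and 86.4 kb. The groups did not overlap, although siCtrl replicate 2 and siLSD1 replicate 1 lay close together. The means were 75.5 ± 5.49 kb (SD, n = 2) and 83.3 ± 4.47 kb (SD, n = 2), a ratio of 1.10 with an exact permutation p of 0.333. The difference of 7.80 kb was 3.92 kb when siCtrl replicate 1 was left out and 4.64 kb when siLSD1 replicate 2 was.

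HOXC, with the hair and nail gene HOXC13 at its late end, had 60.4 and 63.4 kb with siCtrl and 59.1 and 58.7 kb with siLSD1. Both siLSD1 libraries were the lower. The means were 61.9 ± 2.09 kb (SD, n = 2) and 58.9 ± 0.279 kb (SD, n = 2), a ratio of 0.952 with an exact permutation p of 0.333. The 13 HOXC regions with a peak in each library differed by only 0.008 kb on average. The region found only in the siCtrl libraries, from 94.4 to 96.0 kb from the early end, differed by -1.415 kb. The region from 29.5 to 32.2 kb, absent in siLSD1 replicate 2, differed by -1.774 kb. With the upper 50% of each list by score the difference turned to 1.43 kb more after siLSD1.

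HOXD, with the digit genes HOXD11, HOXD12 and HOXD13 at its late end, had 49.9 and 52.1 kb with siCtrl and 48.0 and 47.5 kb with siLSD1. Here too both siLSD1 libraries were the lower. The means were 51.0 ± 1.53 kb (SD, n = 2) and 47.8 ± 0.338 kb (SD, n = 2), a ratio of 0.937 with an exact permutation p of 0.333. With the upper 50% of each list by score the difference was -5.57 kb in place of -3.22 kb. That cut drops whole peaks, so its result also depends on how the cover is divided into peaks.

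**Figure D2:**
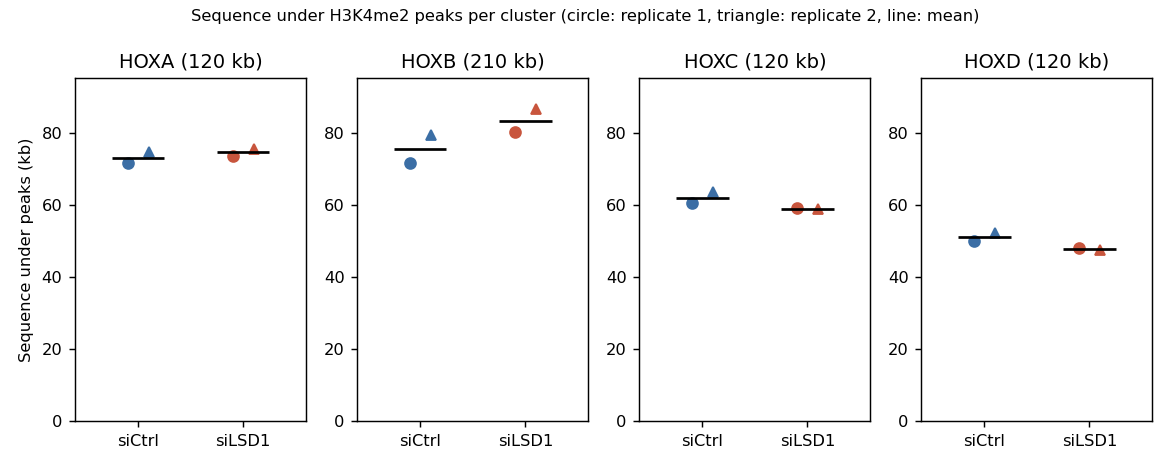
Kilobases under peaks in each cluster (y axis, from 0) for each siRNA (x axis); circles are replicate 1, triangles replicate 2 and lines the means. The siLSD1 points lie above the siCtrl points in HOXB, below them in HOXC and HOXD, and among them in HOXA.

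The balance between clusters can be read within each library. The sequence under peaks in HOXA and HOXB together, divided by that in HOXC and HOXD together, was 1.30 and 1.33 in siCtrl replicates 1 and 2. It was 1.43 and 1.52 in siLSD1 replicates 1 and 2. The siLSD1 libraries were both higher, and the grouping of the clusters was made after their values had been seen.

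The lists of the whole genome were longer after siLSD1, with a covered length of 100.7 ± 5.33 Mb (SD, n = 2) against 82.1 ± 16.95 Mb (SD, n = 2), a ratio of 1.23. Over the 4 clusters together the groups overlapped, with 253.5 and 269.4 kb under peaks with siCtrl and 260.7 and 268.2 kb with siLSD1. Per 100 Mb under peaks in the same list, the clusters held 361.3 and 286.2 kb with siCtrl and 269.1 and 256.8 kb with siLSD1. On that scale both siLSD1 libraries were lower than both siCtrl libraries in each of the 4 clusters, HOXB included. The lists covered 70.15 and 94.1 Mb with siCtrl and 96.9 and 104.4 Mb with siLSD1. The groups did not overlap (exact permutation p = 0.333), but siCtrl replicate 2 lay closer to siLSD1 replicate 1 than to siCtrl replicate 1. The part of the list length in the differences was not tested. With the 33878 top-scoring peaks of each list, the difference was -3.00 kb in HOXC, -3.64 kb in HOXD and 5.88 kb in HOXB. The libraries of HOXB overlapped in that setting, with an exact permutation p of 0.667.

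Densely covered sequence elsewhere gave the background for these directions. Of 101 tiles of 120 kb outside the clusters that were at least 25% covered, 3 (2.97%) had both siLSD1 libraries below both siCtrl libraries, as HOXC and HOXD did, and 55 (54.5%) had both above. The difference of means was negative in 14 of the 101 tiles, and its median was 4.02 kb. The share of these tiles with a difference below that of the cluster was 0.99% for HOXC, 0% for HOXD and 29.7% for HOXA. Of 20 tiles of 210 kb, 14 (70%) had both siLSD1 libraries above both siCtrl libraries, as HOXB did, and 1 (5%) had both below. Their median difference was 7.72 kb, close to the 7.80 kb of HOXB, and 50% of them had a lower difference than HOXB. The 25% limit was set after the data were seen. Only 1 tile of 120 kb was covered more than HOXC and 4 more than HOXD, so the tiles were not matched to the clusters in cover.

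**Figure D3:**
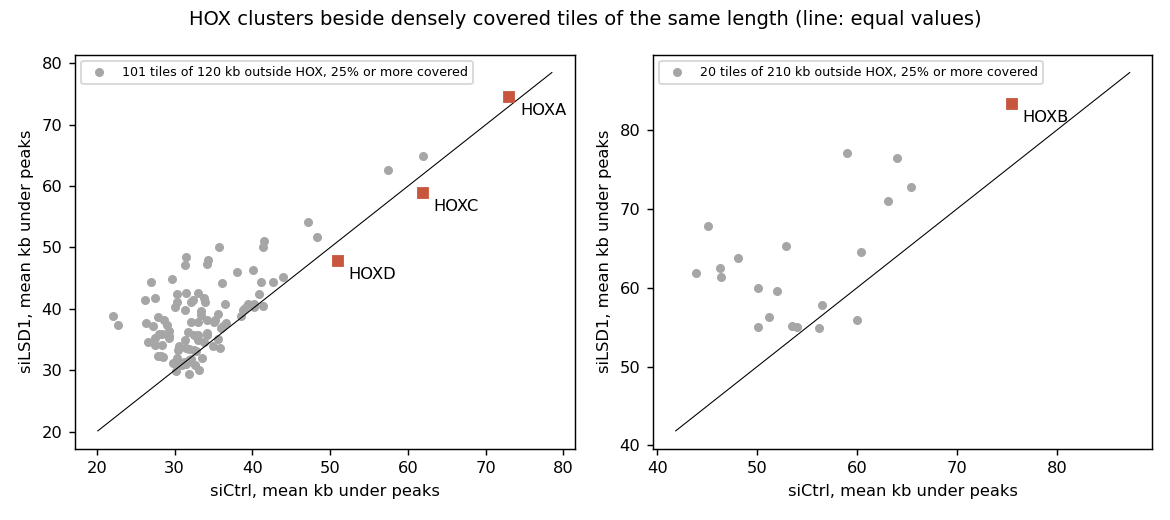
Mean kb under peaks after siCtrl (x axis) and siLSD1 (y axis) for the clusters (red squares) and for densely covered tiles of the same length (grey points), with a line of equal values. HOXC and HOXD lie below the line, where 14 of the 101 tiles of 120 kb also lie, and HOXB lies above it.

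Along the windows, the mark was spread differently from the early to the late end, in all 4 libraries. Each window was split at its midpoint, which does not divide early from late paralogs. The early 60 kb of HOXA held 45.8%, 45.0%, 46.2% and 46.2% of its covered sequence in siCtrl replicates 1 and 2 and siLSD1 replicates 1 and 2. For the early 60 kb of HOXC the shares were 46.7%, 48.8%, 46.9% and 46.4%. Both clusters were thus covered about evenly.

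The early 105 kb of HOXB held 73.8%, 75.7%, 75.3% and 76.3% of its covered sequence in the same order of libraries. The early 60 kb of HOXD held only 21.99%, 20.4%, 20.6% and 21.8%. HOXB was therefore weighted to the early side of its window and HOXD to the late side, and the shares of HOXB and HOXD lay further apart than those of the libraries of either. After siLSD1 the shares differed by 1.03 points in HOXB, -1.08 points in HOXC and 0.0081 points in HOXD, each with overlapping libraries. In HOXA they differed by 0.759 points without overlap and with an exact permutation p of 0.333, and by -0.640 points in the upper 50% of the lists.

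In HOXB the higher cover after siLSD1 lay mostly on the early side, which held most of the cover in every library. The ratio of means, siLSD1 to siCtrl, was 1.12 for the early and 1.06 for the late 105 kb. The early 105 kb had 52.9 and 60.1 kb under peaks with siCtrl and 60.3 and 65.9 kb with siLSD1. The late 105 kb had 18.7 and 19.3 kb against 19.8 and 20.5 kb. Neither side overlapped between the groups.

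In HOXD cover was lower by about the same proportion on both sides, with ratios of means of 0.938 early and 0.937 late. The late 60 kb had 38.9 and 41.5 kb with siCtrl and 38.15 and 37.2 kb with siLSD1. The early 60 kb had 11.0 and 10.6 kb against 9.87 and 10.4 kb. In HOXC the early 60 kb had 28.2 and 30.95 kb against 27.7 and 27.3 kb, and the late 60 kb 32.2 and 32.4 kb against 31.4 kb in each siLSD1 library.

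HOXA held the broadest of all 26653 common regions, those with a peak in each of the 4 libraries. It lay at chr7:27199276-27228798, from 69.3 to 98.8 kb from the early end. Peaks covered 28.4 and 28.9 kb of it with siCtrl and 29.1 and 29.3 kb with siLSD1. It consisted of 3 peaks in each siCtrl library, 2 in siLSD1 replicate 1 and 1 unbroken peak in siLSD1 replicate 2. Its 10-kb windows from 70 to 90 kb were covered in full in all 4 libraries, and only 6 windows of the genome were, these 2 included.

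The longest unbroken stretch of HOXA was 21.4 and 21.55 kb with siCtrl and 21.9 and 29.3 kb with siLSD1. The higher mean after siLSD1 came from replicate 2, without which the difference was 0.404 kb in place of 4.12 kb. HOXA had 10 and 12 breaks, the gaps between neighbouring peaks, with siCtrl and 11 and 10 with siLSD1. The longest stretches open in all 4 libraries lay on the late side, from 98.8 to 106.8 kb and from 111.6 to 119.5 kb, and flank a common region of 4.73 kb. A longer break on the early side, between 27.2 and 37.1 kb, was not open in all libraries. It measured 10.9 and 10.2 kb with siCtrl and 10.2 kb in siLSD1 replicate 2, and was divided by a peak of 1.30 kb in siLSD1 replicate 1.

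In the single windows of HOXA, the difference was largest from 0 to 10 kb, with 5.38 and 5.33 kb with siCtrl and 5.58 and 8.24 kb with siLSD1. This rested on a peak of 2.26 kb found only in siLSD1 replicate 2. The window from 20 to 30 kb had 6.26 and 6.83 kb against 7.05 and 7.24 kb. On the lower side, the window from 40 to 50 kb had 7.96 and 7.85 kb with siCtrl and 7.08 and 6.75 kb with siLSD1, with no overlap. It holds a stretch of 1099 bases, at chr7:27173702-27174800, covered in both siCtrl libraries and in neither siLSD1 library. In siCtrl replicate 2 the stretch is a peak of its own with a score of 61.2, at a percentile of 7.31 in that list. The pooled siLSD1 list has a peak that covers it whole, from 27172868 to 27184244. With equal numbers of peaks, and with the upper 50% of each list by score, the difference of this window was -0.44 kb in place of -0.99 kb. The next lower window, from 100 to 110 kb, had 2.72 and 3.18 kb against 2.73 and 2.82 kb, so its libraries overlapped.

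HOXB had its broadest common region at chr17:46637627-46657164, from 37.6 to 57.2 kb from the early end, which ranked 20 among all common regions. Peaks covered 13.7 and 16.3 kb of it with siCtrl and 16.4 and 19.1 kb with siLSD1. The siLSD1 libraries were both broader, though siLSD1 replicate 1 exceeded siCtrl replicate 2 only narrowly. The neighbouring common region, from 57.2 to 66.2 kb, had 7.03 and 7.65 kb with siCtrl, each in 2 peaks, and 8.83 and 8.80 kb with siLSD1, each in 1 peak.

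The window of HOXB from 50 to 60 kb differed most, with 7.17 and 7.92 kb with siCtrl and 9.58 and 9.72 kb with siLSD1. The siLSD1 libraries were close to full cover. The window from 10 to 20 kb came next, with 2.04 and 3.78 kb against 3.40 and 4.51 kb, and its libraries overlapped. On the lower side, the window from 200 to 210 kb had 6.61 and 6.83 kb against 5.96 and 6.93 kb, and that from 100 to 110 kb had 3.85 and 4.68 kb against 3.99 and 4.2 kb. Both overlapped between the groups.

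The longest open stretch of any of the clusters was in HOXB, 36.6 kb from 156.8 to 193.4 kb. The next longest of HOXB was 22.5 kb, from 126 to 148.5 kb. HOXB13, a prostate and hindgut gene, is set apart from the other HOXB genes by a long intergenic stretch. Past the open stretch lay a pair of common regions, from 194.6 to 202.9 kb and from 204.1 to 208.3 kb. The former was covered by 8.16 and 8.21 kb with siCtrl and 7.74 and 8.14 kb with siLSD1. It was the only common region of HOXB that was narrower in both siLSD1 libraries. HOXB had 16 breaks in each siCtrl library and 19 and 15 with siLSD1, and the longest unbroken stretches were 8.16 and 10.2 kb against 8.83 and 11.1 kb. Both measures overlapped between the groups.

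HOXC held the only region of the clusters that was lost after siLSD1, that is, with a peak in both siCtrl libraries and in neither siLSD1 library. It lay at chr12:54354044-54355637, from 94.4 to 96.0 kb from the early end, and measured 1.59 and 1.24 kb in siCtrl replicates 1 and 2. In the genome, 615 of 58952 regions (1.04%) were lost and 4107 (6.97%) were gained. In the clusters 0 of 55 were gained and 1 was lost. Without siCtrl replicate 1, 0 of 58 were gained and 3 lost, against 7.90% and 7.05% of regions in the genome in that setting. Without siLSD1 replicate 1, 1 of 54 was gained and 2 were lost, against 17.9% and 2.49%. Without siLSD1 replicate 2, 3 of 57 were gained and 1 lost, against 16.8% and 2.61%. Its peaks lay at score percentiles of 29.6 and 34.6 in siCtrl replicates 1 and 2. The pooled siCtrl list had a peak at the lost region with a score of 213.8, at a percentile of 42.7, and the pooled siLSD1 list had none. The pooled lists hold the data of the same replicates and are no separate support. The lost region disappeared as such in the upper 50% of the lists and when peaks were merged across gaps up to 1000 bp. It lies in the 10-kb window of HOXC from 90 to 100 kb, which had 5.28 and 5.40 kb with siCtrl and 3.97 and 4.05 kb with siLSD1.

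The window of HOXC that differed most, from 30 to 40 kb, had 7.30 and 8.41 kb with siCtrl and 6.76 and 5.77 kb with siLSD1. It includes part of a region from 29.5 to 32.2 kb, covered by 1.84 and 2.70 kb with siCtrl, 0.992 kb in siLSD1 replicate 1 and 0 kb in siLSD1 replicate 2. The largest opposite difference was in the window from 10 to 20 kb, with 3.45 and 3.29 kb against 4.77 and 3.57 kb. Without siLSD1 replicate 1 this difference was 0.1985 kb, below the 0.6445 kb of the window from 70 to 80 kb in that setting. The window from 70 to 80 kb had 6.44 and 6.27 kb against 6.40 and 7.0 kb and overlapped.

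The broadest common region of HOXC, at chr12:54373633-54383992 and 66.0 to 76.4 kb from the early end, ranked 159 among all common regions. It had 9.46 and 9.37 kb under peaks with siCtrl and 9.51 and 10.03 kb with siLSD1. This region was therefore broader in both siLSD1 libraries, by a narrow margin, in a cluster with lower total cover. HOXC had 15 and 16 breaks with siCtrl and 16 and 13 with siLSD1. The longest stretches open in all 4 libraries ran from 103.7 to 115.2 kb and from 4.0 to 11.4 kb.

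HOXD had its broadest common region at chr2:176991311-177005155, from 54.8 to 68.7 kb from the early end, which ranked 48 among all common regions. Peaks covered 13.0 and 13.5 kb of it with siCtrl and 12.6 and 12.1 kb with siLSD1. Both siLSD1 libraries were narrower. A stretch of 641 bases inside it, from 61.0 to 61.7 kb, was covered in both siCtrl libraries and in neither siLSD1 library. The longest unbroken stretch of the cluster was 7.36 and 8.06 kb with siCtrl and 6.66 and 6.69 kb with siLSD1, without overlap and with an exact permutation p of 0.333.

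Early HOXD was mostly open, with breaks shared by all 4 libraries from 8.56 to 36.4 kb and from 38.65 to 54.8 kb. Between these breaks stood a common region of 2.19 and 2.08 kb with siCtrl and 1.98 and 2.23 kb with siLSD1. At the early end, the common region from 4.92 to 8.56 kb was narrower in both siLSD1 libraries, with 3.63 and 3.42 kb against 2.84 and 3.19 kb. HOXD had 12 and 13 breaks with siCtrl and 13 and 14 with siLSD1.

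In the windows of HOXD, the difference was largest from 70 to 80 kb, with 7.53 and 7.01 kb with siCtrl and 6.91 and 5.29 kb with siLSD1. The window at the late end, from 110 to 120 kb, had 8.30 and 8.71 kb against 7.82 and 7.40 kb. Both were lower in both siLSD1 libraries. Without siLSD1 replicate 2 the difference from 70 to 80 kb was -0.364 kb in place of -1.18 kb, smaller than the -0.683 kb of the late window in that setting. With the upper 50% of each list by score the late window differed by -3.21 kb in place of -0.896 kb. That cut drops whole peaks. In this window it dropped peaks at score percentiles of 40.5 in siLSD1 replicate 1, and of 45.9, 33.2 and 12.2 in siLSD1 replicate 2. It also dropped a peak at a percentile of 9.72 in siCtrl replicate 2. On the other side, the window from 90 to 100 kb had 4.91 and 4.90 kb against 5.11 and 5.47 kb, and that from 100 to 110 kb had 6.03 and 6.59 kb against 6.46 and 6.34 kb.

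**Figure D4:**
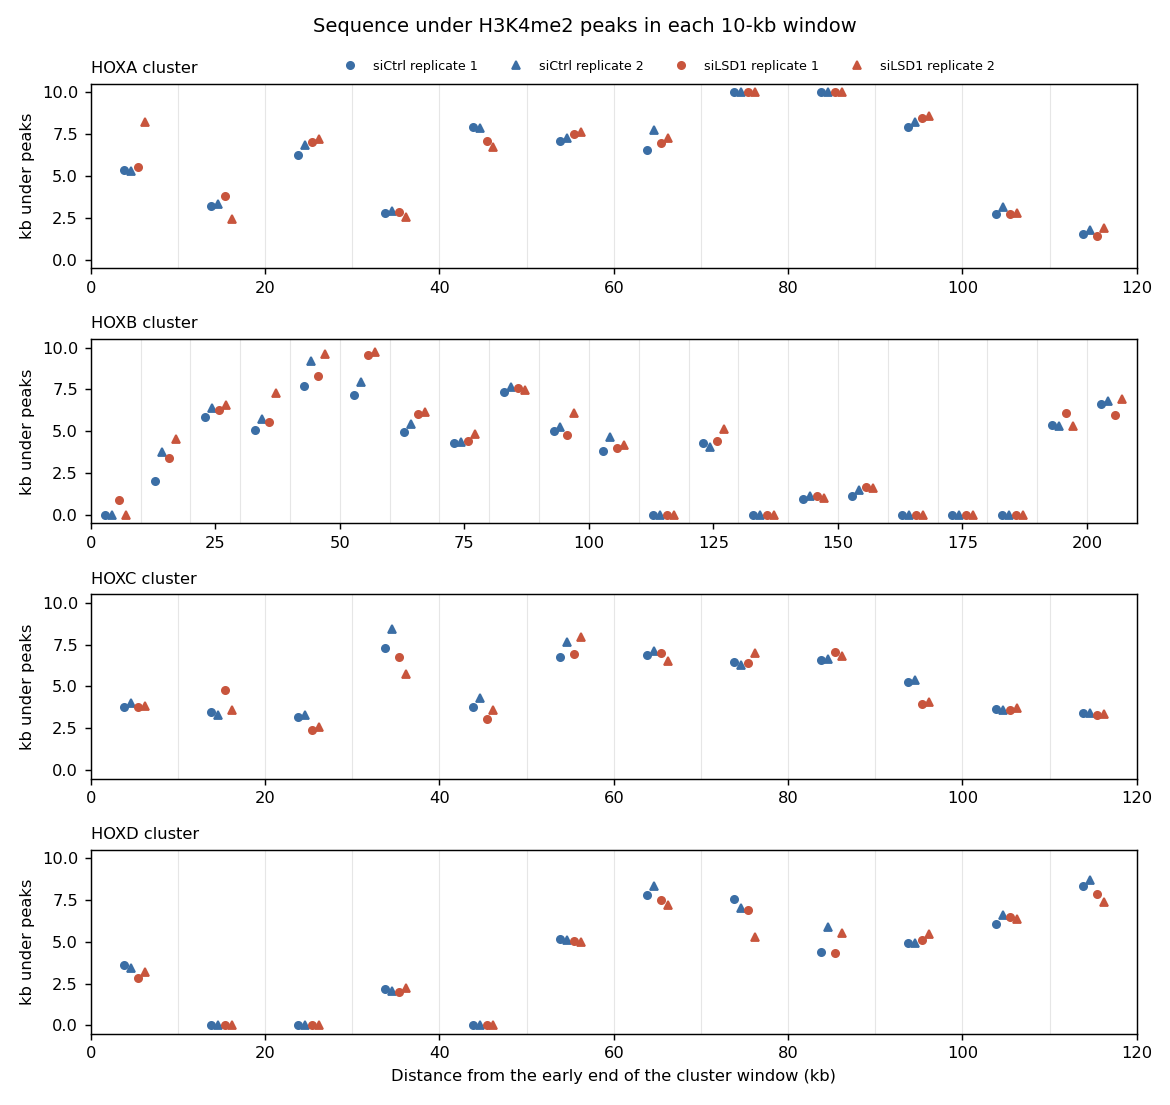
Kilobases under peaks in each 10-kb window (y axis, at most 10) by distance from the early end in kb (x axis) for the 4 libraries; circles are replicate 1, triangles replicate 2, blue siCtrl and red siLSD1. HOXA is full from 70 to 90 kb in every library, and in HOXB the red points lie above the blue ones at 50 to 60 kb.

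Of the 57 windows in the clusters, 48 were tested, having 0.5 kb or more covered in 2 or more libraries. Both siLSD1 libraries lay above both siCtrl libraries in 12 windows and below them in 11, against 35.6% and 8.32% of the 43372 windows tested in the genome. The windows above and below numbered 4 and 1 in HOXA, 5 and 0 in HOXB, 2 and 5 in HOXC, and 1 and 5 in HOXD. The 12 above became 24 when siCtrl replicate 2 was left out and 23 when siLSD1 replicate 1 was. The 11 below became 21 when siCtrl replicate 1 was left out. The shares over the genome were not counted with a library left out, so these changes cannot be set against it. The median difference over the windows was 0.327 kb in HOXB, -0.006 kb in HOXA, -0.0772 kb in HOXC and -0.221 kb in HOXD, against 0.213 kb in the genome.

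With limma and Benjamini-Hochberg adjustment over the 43372 windows, 0 windows were called higher and 0 lower at an adjusted p under 0.05 (0% each way), in the clusters as in the genome. The lowest adjusted p of any window was 0.129. On simulated data limma called no shifted window either, so the absence of calls does not show that cover was unchanged. Before adjustment, 1 HOX window was higher and 3 were lower at a limma p under 0.05, against 12.4% and 1.94% of all windows tested. The higher window was that of HOXB from 50 to 60 kb, with a difference of 2.10 ± 0.397 kb (SE, limma adjusted p = 0.141). The lower windows were those of HOXC from 90 to 100 kb, with -1.33 ± 0.224 kb (SE, limma adjusted p = 0.129), of HOXC from 20 to 30 kb and of HOXA from 40 to 50 kb. The last had a difference of -0.99 ± 0.290 kb (SE, limma adjusted p = 0.278). The window of HOXC from 20 to 30 kb had 3.15 and 3.27 kb with siCtrl and 2.43 and 2.56 kb with siLSD1, and was named after its value had been seen.

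Regions of the clusters were mostly shared by all libraries. A peak in each of the 4 libraries was found for 47 of the 55 regions (85.5%), against 45.2% of regions in the genome. Such common regions numbered 9 of 12 in HOXA, 14 of 16 in HOXB, 13 of 15 in HOXC and 11 of 12 in HOXD. Another 7 regions had another mixture of libraries. The median breadth of the common regions was 4.23 kb, against 2.37 kb in the genome.

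Of the 47 common regions, 10 were broader and 10 narrower in both siLSD1 libraries than in either siCtrl library, or 21.3% each, against 30.3% and 9.62% of common regions in the genome. Broader and narrower regions numbered 3 and 1 of 9 in HOXA, 4 and 1 of 14 in HOXB, 2 and 3 of 13 in HOXC, and 1 and 5 of 11 in HOXD. Without siCtrl replicate 1, 11 of 48 were broader and 24 narrower, against 37.8% and 30.7% of common regions in the genome in that setting. Without siCtrl replicate 2 the counts were 22 and 11 of 49, against 63.1% and 14.05%. Without siLSD1 replicate 1 they were 19 and 15 of 49, against 52.9% and 16.4%. Without siLSD1 replicate 2 they were 13 and 21 of 51, against 39.0% and 26.0%. In each of these settings a single library stood for a group.

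**Figure D5:**
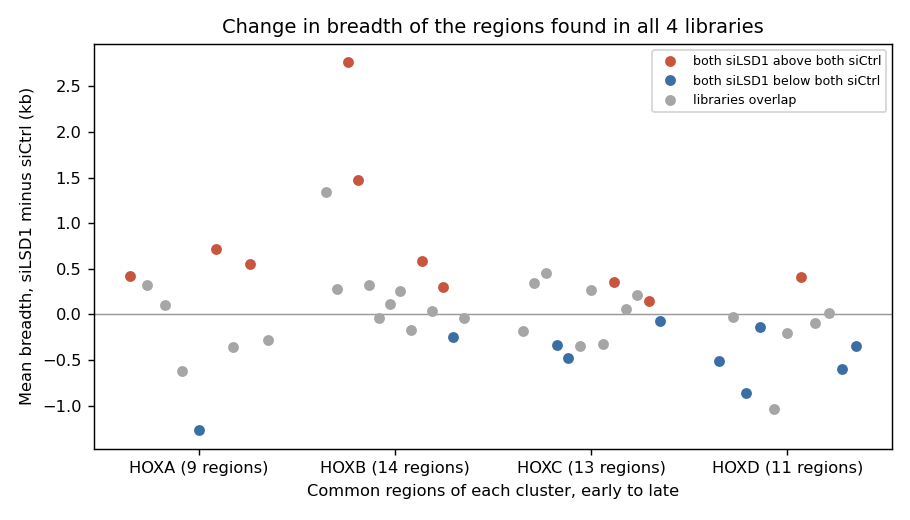
Difference in mean breadth in kb (y axis, siLSD1 minus siCtrl) of the 47 common regions, by cluster and from early to late within it (x axis); red points are broader and blue points narrower in both siLSD1 libraries, and grey points overlap. The largest positive value is the broadest HOXB region, and 5 of the 11 HOXD regions are blue.

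The outer edges were read in the regions made of 1 peak in each library, 37 in the clusters. The mean edge lay further out after siLSD1 for 9 of 14 edges in HOXA, 14 of 22 in HOXB, 8 of 20 in HOXC and 6 of 18 in HOXD. Over the clusters this was 37 of 74 edges (50%), against 64.3% of 40694 edges in the genome. HOXA and HOXB were thus near the share of the genome, and HOXC and HOXD below it. These are counts of means and were not tested.

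Base by base, 296572 bases of the clusters were under a peak in at least 1 library, and 78.2% of them were covered in all 4. In the genome the share was 45.7%. Covered in both siLSD1 libraries and in neither siCtrl library were 1287 bases in HOXA, 1885 in HOXB, 296 in HOXC and 291 in HOXD. The reverse held for 1728, 0, 2482 and 1359 bases in the same order of clusters. Over the 4 clusters the ratio of the former to the latter was 0.675, against 4.94 in the genome. The genome was not matched to the clusters in cover or peak score, here or for the windows and edges. Only 45.2% of its regions were common, against 85.5% in the clusters, so these shares do not compare like with like.

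The pooled lists of the authors, for which no replicates exist, gave 78.6 kb after siCtrl and 83.0 kb after siLSD1 in HOXA, and 85.2 and 93.25 kb in HOXB. They gave 68.8 and 63.8 kb in HOXC and 55.0 and 53.2 kb in HOXD. HOXA and HOXB were thus the higher and HOXC and HOXD the lower after siLSD1 in these lists. Each pooled list holds the data of both replicates of its group, so it is not separate from the libraries. The pooled siLSD1 list joined the early part of HOXB from 44.8 to 66.2 kb into a single peak of 21.3 kb, and its longest HOXA peak measured 29.4 kb against 21.9 kb in the pooled siCtrl list.

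Of the HOX peaks in the pooled siCtrl list, 1 in HOXA and 1 in HOXC overlapped no peak of the pooled siLSD1 list, against 8.86% of all its peaks. Of those in the pooled siLSD1 list, 2 in HOXA and 1 in HOXB overlapped none of the other, against 27% of all its peaks. The 3 had scores of 87.3, 117.3 and 61.4, which lie low in that list, at percentiles of 19.7, 29.4 and 7.20. The HOXB peak among them, from 114.8 to 116.2 kb, was in none of the 4 library lists.

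The highest-scoring peaks of the pooled lists are mostly tied, since many scores end at a value of 3100. In the pooled siCtrl list, 6 HOXA and 6 HOXD peaks shared that value. The top peaks of HOXB and HOXC there were those from 51.6 to 57.0 kb, with 3148.8, and from 99.35 to 103.6 kb, with 3212.3. In the pooled siLSD1 list, 6 HOXA, 3 HOXB and 3 HOXC peaks were tied at 3100, and the top peak of HOXD, from 70.9 to 73.9 kb, had 3101.6. Peaks of every cluster thus reached the upper end of the scores in both pooled lists.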

How the data were processed

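H3K4me2 ChIP-seq peak lists of 4 RD libraries and 2 pooled lists were used. Per the submitters' processing notes, reads were aligned with Bowtie to hg19. The peak names carry the name of MACS. Versions, caller settings, any use of the inputs and the way of pooling were not given in the sources used. Each deposited peak has positions and a score, the authors' own value. The lists hold no read counts, so the depth behind them is unknown.

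Peaks on chromosomes 1 to 22 and X were kept, and coordinates are hg19, counted from 1. Peaks overlapping by at least 1 bp were merged over the 4 libraries. A two-sided exact permutation test compared the groups per cluster, and over 10-kb windows limma 3.58.1 (trend, robust, statmod 1.5.0, R 4.3.3) was used with an adjusted p under 0.05 as threshold. Region building and limma were tested on simulated data, where limma recovered the size of shifts in window cover but called no shifted window after adjustment at this number of libraries. Figures were drawn with matplotlib 3.10.9, and other steps ran in Python 3.11.15 with scipy 1.17.1, pandas 2.3.3 and numpy 2.4.6. The members, windows and lists were chosen with earlier results of these data known.

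Named are, per cluster, the broadest common region, the 2 longest stretches open in all 4 libraries, every gained or lost region, the 2 windows with the largest positive and the 2 with the most negative difference in mean cover, and the top pooled peaks. Promoter sequences are from RefSeq (GRCh38.p14). Alternatives were other peak selections, window widths and overlaps, a replicate block, other scaling and leaving out each library.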

Additional observations from a re-analysis of the deposited data

How the results depend on the processing

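Each difference is siLSD1 minus siCtrl. In the replicate block fit, limma called 0 HOX windows and 0 windows of the genome in either direction. Deviations of same-numbered libraries correlated at 0.15 over 43372 windows and at 0.343 over the 48 HOX windows, and with 2 pairs the numbers were not taken as a pairing. HOX windows called by limma stayed at 0 in every setting run. On simulated data the main fit called no shifted window after adjustment, so the absence of calls cannot show that windows were unchanged. In the genome limma called 5 higher and 4 lower with quantile normalization, and 1178 and 126 with the upper 50% of each list by score.

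With that upper 50%, the difference was 1.433 kb and 2 breaks in HOXC and -0.5 breaks in HOXD, and the share of cover on the early side changed by -0.6396 points in HOXA and 1.124 points in HOXC. Mean breadth of common regions differed by 0.1106 kb in HOXA and -0.1236 kb in HOXC, in place of -0.0453 and 0.008 kb in the main setting. With the upper 50%, 0 regions were lost, and the HOXC window from 90 to 100 kb differed by 0.0845 kb. With equal numbers of peaks, HOXB had a difference of -1 breaks, HOXA common regions one of 0.0157 kb, and 3 of 51 regions were lost. In the genome 3.42% of regions were lost and 3.29% gained in that setting. Counting only gaps over 1000 bp gave -1.5 breaks in HOXB and longest stretches of -0.0285 kb in HOXA and 0.4425 kb in HOXC. Merging across gaps up to 1000 bp gave 0 lost regions and breadths of 0.1029 kb in HOXA and -0.1009 kb in HOXC. Scaling each library to the same total gave -15.08 kb in HOXA and -9.558 kb in HOXB. It gave -0.9038 kb in the HOXA window from 20 to 30 kb, -0.0351 and -1.16 kb in the HOXC windows from 10 to 20 and 70 to 80 kb, and -0.7722 and -1.305 kb in the HOXD windows from 90 to 100 and 100 to 110 kb. Quantile normalization gave -0.1588, -0.1104 and -0.4048 kb in the HOXC window from 70 to 80 kb and these HOXD windows. The causes of these changes were not tested.

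Leaving out each library in turn, the difference in cover ranged from -0.038 to 2.976 kb in HOXA, from 3.922 to 11.68 kb in HOXB, from -4.471 to -1.511 kb in HOXC and from -4.301 to -2.135 kb in HOXD. The difference in breaks ranged from -1.5 to 0.5 in HOXA, -1 to 3 in HOXB and -2.5 to 0.5 in HOXC, and that in the longest stretch of HOXB from -0.3525 to 1.881 kb. The early share ranged from -2.164 to 0.0087 points in HOXC and -0.79 to 0.8062 points in HOXD. Mean breadth ranged from -0.0768 to 0.1082 kb in HOXA and -0.1182 to 0.105 kb in HOXC. Counts ranged from 0 to 3 gained, 1 to 3 lost, 11 to 22 broader and 11 to 24 narrower regions. In the genome the shares ranged from 7.90% to 19.5% gained and from 2.49% to 7.05% lost. Of its common regions, 37.8% to 63.1% were broader and 14.05% to 30.7% narrower. Windows of the clusters above ranged from 14 to 24 and those below from 11 to 21. The shares of such windows over the genome were not counted with a library left out. These window counts therefore cannot be set against the genome. The HOXA window from 100 to 110 kb ranged from -0.404 to 0.056 kb, the HOXB windows from 200 to 210 and 100 to 110 kb from -0.761 to 0.213 and -0.585 to 0.243 kb, and the HOXD window from 100 to 110 kb from -0.188 to 0.372 kb. The lone library is then assumed to vary like the other group. Depth is unknown, and with 2 libraries a group no cluster difference could pass the exact test.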
